A study of Mus musculus with 9 samples.

Results

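The bone morphogenetic protein (BMP) pathway was described here through 10 genes, taken from the count table by symbol: the ligands Bmp4, Bmp6 and Bmp7, the intracellular transducer Smad9, the inhibitory Smads Smad6 and Smad7, and the target genes Id1, Id2, Id3 and Id4. They are 10 of the 55421 genes of the table, and all 10 passed the filter on low counts that left 20032 genes to test. Gene counts came from bulk RNA sequencing of 9 libraries of mouse hippocampal cells, in 3 groups of 3 mice by the study's design. Live cells had been sorted for tdTomato, a red fluorescent protein carried by the mice as a neuronal transgene. The first group held mice with a conditional knockout of Tmsb4x, the gene of the actin-binding peptide thymosin beta 4, after a mild traumatic brain injury (mTBI) made by 1 mild controlled cortical impact. The second held wild-type mice after the same injury, and the third was labelled as wild-type mice after a sham operation without the impact. The promoter and Cre line behind the tdTomato label and the knockout, the deleted part of Tmsb4x, and the age, sex and time after injury are not given in the sources used here. Knockout mice without injury were not analysed here, which leaves genotype and injury without a joint test.

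BMP ligands are secreted dimers that join type I and type II receptor kinases at the cell surface. The type I receptor phosphorylates Smad1, Smad5 or Smad9, which enter the nucleus with Smad4 and switch on target genes, among them the Id genes. Id proteins are helix-loop-helix proteins without a DNA-binding region that capture the E proteins Tcf3, Tcf4 and Tcf12 and so keep basic helix-loop-helix factors from E boxes. Smad6 and Smad7 are themselves targets and feed back on the receptors. In the hippocampus BMP signals are known for holding neural stem cells of the dentate gyrus quiescent and for favouring astrocytes over neurons, and Bmp4, Bmp6 and Bmp7 are also made by choroid plexus and meninges.

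Library totals lay between 36452443 and 39590872 counts, and the 10 genes had 64 to 2706 counts in a library. The targeted gene Tmsb4x had 1.83 to 2.79 CPM (counts scaled to a common library size, with TMM factors) in knockout mTBI libraries, against 297 to 900 CPM in wild-type mTBI libraries, and 1.68 to 2.73 CPM in libraries labelled as wild-type sham. These labelled sham libraries stood at the knockout level of Tmsb4x (log2 fold change of knockout mTBI over labelled sham 0.15, edgeR adjusted p = 0.999), against their label, and every direction drawn from them below rests on libraries whose label and Tmsb4x level disagree. Injury and Tmsb4x level change together between wild-type mTBI and labelled sham libraries and cannot be told apart there. That comparison is called the injury comparison below by its labels only. The labelled sham libraries were also more alike than the other groups. The median squared difference between paired labelled sham libraries was 2.19 to 2.37 times its independent-read expectation at mean counts of 100 to 1000, where counting both mates of a read pair gives up to 2 times, against 4.77 to 9.11 times among knockout mTBI and 4.56 to 15.65 times among wild-type mTBI libraries. At mean counts above 1000 it was 2.85 to 3.14 times among labelled sham, against 9.66 to 20.92 times among knockout mTBI and 8.33 to 71.84 times among wild-type mTBI libraries. The common biological coefficient of variation was 3.27% in labelled sham, against 18.7% in knockout mTBI and 19.7% in wild-type mTBI libraries. The edgeR fit shares 1 spread per gene over all 3 groups. Its intervals between knockout and wild-type mTBI may therefore be too narrow for genes that vary least in labelled sham libraries. Whether the labelled sham libraries are technical replicates of 1 mouse or pool is not given in the sources used here. They exceeded the read-pair expectation, but this check cannot tell technical from biological replicates, since separately prepared libraries of 1 mouse can exceed it too. The labelled sham libraries are counted as 3 samples below, by their labels only. Several differences from them are also given with their counts summed to 1 sample. A fit with 1 sample in that group can pass few genes of any kind. No conclusion is drawn from a missing call in it. Nothing in the labels says that libraries of a group came from separate sorts, so p-values measure the spread between these libraries, which may be technical. Replicate 3 of the wild-type mTBI group had 835 CPM of Xist and 0.0498 CPM of the Y-linked Ddx3y, against 0 to 0.892 CPM and 49.7 to 58.7 CPM in the other 8 libraries. By these 2 genes that library was female and the other 8 male, so the wild-type mTBI group held both sexes. The part of sex in differences that move when that library is left out was not tested.

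The libraries held RNA of glial markers beside that of neuronal markers, and the source of the glial RNA was not tested. The 6 neuronal markers summed to 9381 to 9966 CPM in knockout mTBI, 8582 to 10000 CPM in wild-type mTBI and 9866 to 10108 CPM in labelled sham libraries. The 8 astrocyte markers summed to 4477 to 5091, 4149 to 4848 and 5151 to 5242 CPM in the same order of groups. The 6 oligodendrocyte markers summed to 6221 to 7348, 5017 to 9194 and 6426 to 6468 CPM in that order. In wild-type mTBI replicate 3 they were at 9194 CPM, above the neuronal markers at 8876.5 CPM. No marker of the 10 cell type lists was at 0 counts in any library. The 10 choroid plexus markers, led by Ttr, summed to 237, 5035 and 4117 CPM in knockout mTBI libraries and 4429, 6232 and 6120 CPM in wild-type mTBI libraries, against 221 to 223 CPM in labelled sham libraries. All 10 markers had a positive log2 fold change of wild-type mTBI over labelled sham, and 7 passed the edgeR test. Of all genes 53% were positive and 0.509% passed there. For knockout mTBI over labelled sham all 10 were also positive and 1 passed, against 52.6% and 0.0699% of all genes. The 6 ependyma markers summed to 19.8 to 33.15 CPM in knockout mTBI, 34.2 to 39.7 CPM in wild-type mTBI and 23.5 to 24.5 CPM in labelled sham libraries. All 6 were positive for wild-type mTBI over labelled sham, and 0 passed. The part of choroid plexus RNA in the values below was not tested, and in bulk RNA fewer cells of a type and less RNA per cell cannot be told apart.

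The start regions of 4 of the genes are printed here because these 4 reached an unadjusted p under 0.05 in at least 1 comparison and hold a motif known to bind Smads. They are the 250 bases before the RefSeq start on GRCm38.p6, 5′ to 3′ on the plus strand: Bmp6 at chr13:38345466-38345715, Smad9 at chr3:54755332-54755581, Id3 at chr4:136143572-136143821 and Id4 at chr13:48260866-48261115. Capitals mark the Smad-binding pentamer, GTCTG or its complement CAGAC, in Bmp6 and Id3, and the GC-rich element GGCGCC, known from Smad1 and Smad5 binding, in Smad9 and Id4. RefSeq and Ensembl starts differ for Id3 and Bmp6. Their printed bases lie inside the Ensembl genes used for counting, which start at chr4:136143497 and chr13:38345107.

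Bmp6: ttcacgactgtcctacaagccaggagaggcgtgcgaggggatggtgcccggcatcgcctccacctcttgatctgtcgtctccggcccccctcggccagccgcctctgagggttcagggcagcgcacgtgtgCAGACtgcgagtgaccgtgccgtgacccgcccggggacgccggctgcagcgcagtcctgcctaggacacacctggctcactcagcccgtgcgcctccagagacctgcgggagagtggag

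Smad9: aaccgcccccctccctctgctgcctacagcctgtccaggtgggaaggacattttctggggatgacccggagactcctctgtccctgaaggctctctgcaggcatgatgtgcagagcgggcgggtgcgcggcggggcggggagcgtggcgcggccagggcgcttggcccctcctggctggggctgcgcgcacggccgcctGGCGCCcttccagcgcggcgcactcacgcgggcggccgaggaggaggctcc

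Id3: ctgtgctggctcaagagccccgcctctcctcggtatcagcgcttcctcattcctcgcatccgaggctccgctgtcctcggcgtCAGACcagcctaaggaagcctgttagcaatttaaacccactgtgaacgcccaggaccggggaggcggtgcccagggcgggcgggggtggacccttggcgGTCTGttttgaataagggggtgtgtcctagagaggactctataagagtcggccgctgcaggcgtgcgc

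Id4: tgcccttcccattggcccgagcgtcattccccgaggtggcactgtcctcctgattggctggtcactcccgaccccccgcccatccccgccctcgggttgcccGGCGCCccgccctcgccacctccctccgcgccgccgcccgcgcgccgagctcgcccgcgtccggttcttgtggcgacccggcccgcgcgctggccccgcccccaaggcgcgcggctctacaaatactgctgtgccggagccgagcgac

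Windows of 300 bases, from 250 before to 50 after the start, were described for 7 of the 10 genes. No window was present for Id1 and Bmp7, and member windows on chr18, which holds Smad7, were left out. The pentamer was in 2 of these 7 windows, with 2 copies in Id3 and 1 in Bmp6, against 49.6% of all 32851 RefSeq windows. GGCGCC was in 3 of 7, those of Id2, Id4 and Smad9, against 11.9% of all windows. An E box, CANNTG, was in 5 of 7, against 72.3% of all windows, and was not among the letters of the Id3 and Id4 windows. The Bmp4 window held no Smad motif and 3 E boxes. A match is a description of these letters and not a measured binding site.

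Levels per exon length put the Id genes first. Over all 9 libraries Id2 had 22.8 ± 2.4 CPM per kb of exon (SD, n = 9), Id3 14.1 ± 2.1, Id4 13.5 ± 1.3 and Id1 10.6 ± 2.4 CPM per kb. Id3 and Id4 lay within each other's spread. Smad7 followed at 4.07 ± 0.33 CPM per kb, then Bmp6 at 3.38 ± 0.86, Smad9 at 2.76 ± 0.37 and Bmp7 at 2.69 ± 0.64 CPM per kb, which overlapped one another. Bmp4 at 1.34 ± 0.41 and Smad6 at 0.65 ± 0.15 CPM per kb were lowest. The SD of log2 CPM over 9 libraries was largest for Bmp4 (0.44), Bmp7 (0.37) and Bmp6 (0.35), and smallest for Smad7 (0.12), Id4 (0.14) and Id2 (0.15).

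**Figure D1:**
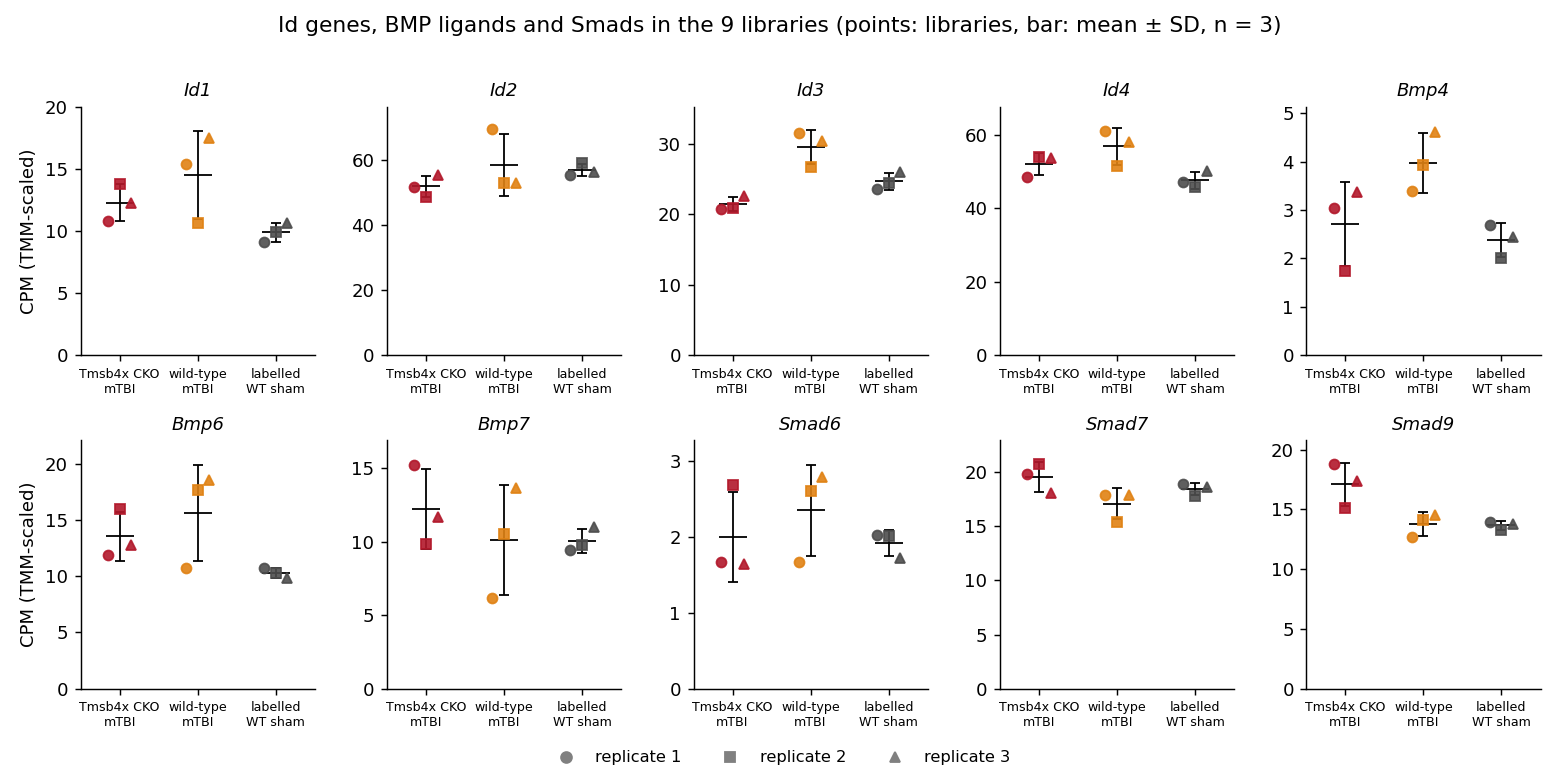
Level of each of the 10 genes in the 9 libraries, in TMM-scaled CPM on a linear axis from 0, with 1 point per library, shapes for replicate numbers and bars for mean ± SD (n = 3). Id3 separates all 3 groups, with 20.8 to 22.6 CPM in knockout mTBI, 26.7 to 31.5 CPM in wild-type mTBI and 23.5 to 26.0 CPM in labelled sham libraries, while Bmp7 and Smad6 overlap in every pair of groups.

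None of the 10 genes passed the edgeR test at an adjusted p under 0.05 in any of the 3 comparisons, which share libraries. The 10 genes and the pathway and marker lists were chosen with earlier results of these data known. Their counts beside those of all genes are a description only. Between knockout and wild-type mTBI, 0 of 10 were called, against 0.015% of all genes tested (3 genes). DESeq2 called 1 of the 10, Id3, against 0.11% of all genes (19 genes), and limma voom 0, against 0.02%. At an unadjusted p under 0.05 there were 3 (edgeR), 1 higher in the knockout (Smad9) and 2 lower (Id3 and Bmp4), against 6.6% of all genes, and groups did not overlap for 4, Smad9 and Smad7 higher and Id3 and Bmp4 lower, against 9.72% of all genes. The median log2 fold change of the 10 genes was -0.19, with 7 below 0, and that of all genes was 0.0012. Between wild-type mTBI and labelled sham libraries, edgeR called 0 of 10, against 0.509% of all genes (102 genes). DESeq2 also called 0, against 2.7% of all genes, and voom called 2, Bmp4 and Bmp6, against 3.6% of all genes (722 genes). At an unadjusted p under 0.05 there were 5, all higher in wild-type mTBI (Id1, Id3, Id4, Bmp4 and Bmp6), against 7.45% of all genes in that direction and 13.2% in either. Groups did not overlap for 4 of them, against 12.4% of all genes in that direction and 23.9% in either. The median log2 fold change of the 10 was 0.26, with 9 above 0, and that of all genes was 0.02. Between knockout mTBI and labelled sham libraries edgeR, DESeq2 and voom each called 0 of 10, against 0.0699% (14 genes), 1.13% and 1.39% of all genes in that order of tools. At an unadjusted p under 0.05 there were 2, Smad9 higher and Id3 lower, against 7.2% of all genes, and 5 did not overlap (Id1, Bmp6 and Smad9 higher, Id2 and Id3 lower), against 17.2%. With the labelled sham libraries summed to 1 sample, all 10 log2 fold changes over labelled sham kept their sign in both comparisons. They ran from -0.11 (Smad7) to 0.73 (Bmp4) for wild-type mTBI and from -0.20 (Id3) to 0.40 (Bmp6) for knockout mTBI.

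**Figure D2:**
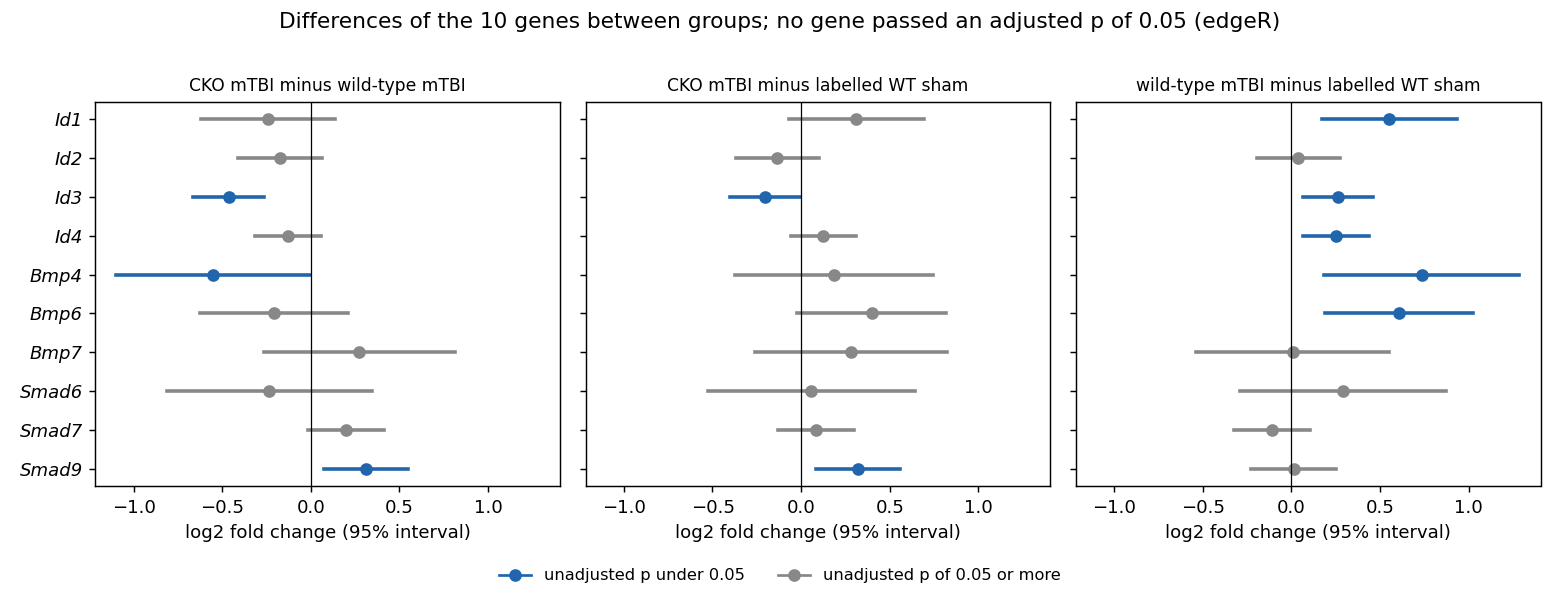
Log2 fold change of each of the 10 genes with its 95% interval from the edgeR fit (x axis), in 1 panel per comparison, with blue for an unadjusted p under 0.05. Id3 lies at -0.46 for knockout over wild-type mTBI and at 0.26 for wild-type mTBI over labelled sham, and no gene passed an adjusted p of 0.05 by edgeR.

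Among the ligands, Bmp4 and Bmp6 lay above labelled sham in wild-type mTBI without passing the test, and Bmp7 differed more within groups than between them. Bmp4 (chr14:46383520-46390669, minus strand, GRCm38), a ligand made in brain by differentiating oligodendrocyte precursors among other cells, had 3.03, 1.74 and 3.36 CPM in knockout mTBI libraries, 3.39, 3.93 and 4.61 CPM in wild-type mTBI libraries, and 2.70, 2.01 and 2.43 CPM in labelled sham libraries. Every wild-type mTBI library was above every library of the other 2 groups, which overlapped, but the narrowest gap was that between 132 and 131 counts. Its log2 fold change was -0.55 for knockout over wild-type mTBI (SE 0.25, edgeR adjusted p = 0.732) and 0.74 for wild-type mTBI over labelled sham (SE 0.25, edgeR adjusted p = 0.247). Bmp4 counts were 68 to 185 in a library, and 89 exon bases overlap those of Gm15217, which counting without strand does not separate. Without knockout mTBI replicate 2 the first difference was -0.31, and under voom the second was 0.81 with an adjusted p of 0.0396. With labelled sham summed the second difference was 0.73 by edgeR.

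Bmp6 (chr13:38345107-38500302, plus strand), known for induction of hepcidin in liver and made in brain by neurons and choroid plexus, had 11.9, 16.0 and 12.8 CPM in knockout mTBI libraries, 10.75, 17.7 and 18.6 CPM in wild-type mTBI libraries, and 10.72, 10.3 and 9.82 CPM in labelled sham libraries. Replicates 2 and 3 of wild-type mTBI were high, whereas replicate 1 lay next to the highest labelled sham library, at 10.75 against 10.72 CPM. The log2 fold change was 0.61 for wild-type mTBI over labelled sham (SE 0.19, edgeR adjusted p = 0.219) and 0.40 for knockout mTBI over labelled sham (SE 0.19, edgeR adjusted p = 0.727), and -0.21 between knockout and wild-type mTBI (edgeR adjusted p = 0.773). This last difference was -0.42 without wild-type mTBI replicate 1 and -0.06 without replicate 3, and that of knockout mTBI over labelled sham was 0.26 without knockout mTBI replicate 2. Without wild-type mTBI replicate 1 the difference of wild-type mTBI over labelled sham was 0.82 and passed, with an edgeR adjusted p of 0.0302. It also passed under voom (0.76, adjusted p = 0.0028) and without the count filter (0.60, edgeR adjusted p = 0.0232). With labelled sham summed this difference was 0.61. Beside these values, choroid plexus markers summed to 237, 5035 and 4117 CPM in knockout mTBI libraries and 4429, 6232 and 6120 CPM in wild-type mTBI libraries, in order of replicate number, and their part was not tested.

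Bmp7 (chr2:172868012-172940321, minus strand), a ligand of choroid plexus, meninges and kidney, had 15.2, 9.82 and 11.7 CPM in knockout mTBI libraries, 6.18, 10.5 and 13.6 CPM in wild-type mTBI libraries, and 9.45, 9.76 and 11.0 CPM in labelled sham libraries. Wild-type mTBI replicate 1 was the lowest of all libraries and knockout mTBI replicate 1 the highest, and all groups overlapped. The log2 difference was 0.27 for knockout over wild-type mTBI (SE 0.25, 95% interval -0.27 to 0.82, edgeR adjusted p = 0.771), and -0.17 with both of those libraries left out. Leaving out only the wild-type one gave 0.02, and leaving out wild-type mTBI replicate 3 gave 0.55. For wild-type mTBI over labelled sham it was 0.01 (95% interval -0.54 to 0.55), with its sign depending on the scaling. The SD of Bmp7 log2 CPM was 0.32 in knockout mTBI, 0.58 in wild-type mTBI and 0.11 in labelled sham libraries. The edgeR intervals use 1 spread for these groups.

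Of the transducers, Smad9 was higher in knockout mTBI than in both other groups, by about the same amount and without passing the test. Smad9 (chr3:54755582-54801257, plus strand), a receptor-activated Smad with weaker activity than Smad1 and Smad5, had 18.8, 15.1 and 17.4 CPM in knockout mTBI libraries, 12.7, 14.1 and 14.5 CPM in wild-type mTBI libraries, and 13.9, 13.3 and 13.8 CPM in labelled sham libraries. Each knockout library was above each of the other 6, whose groups overlapped. In the edgeR fit the log2 fold change was 0.31 over wild-type mTBI (SE 0.11, edgeR adjusted p = 0.732) and 0.32 over labelled sham (SE 0.11, edgeR adjusted p = 0.446). Both contrasts hold the same knockout libraries.

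The inhibitory Smads showed small differences. Smad7 (chr18:75367529-75395935, plus strand), which recruits ubiquitin ligases to BMP and TGF-beta receptors, had 19.9, 20.8 and 18.1 CPM in knockout mTBI libraries, 17.9, 15.4 and 17.9 CPM in wild-type mTBI libraries, and 18.9, 17.8 and 18.6 CPM in labelled sham libraries. Knockout libraries lay just above wild-type mTBI libraries, and both overlapped labelled sham. The log2 fold change of knockout over wild-type mTBI was 0.20 (95% interval -0.02 to 0.41, edgeR adjusted p = 0.732). Smad6 (chr9:63953076-64022059, minus strand), which acts mostly on the BMP branch, had 1.67, 2.69 and 1.64 CPM in knockout mTBI libraries, 1.67, 2.60 and 2.79 CPM in wild-type mTBI libraries, and 2.03, 2.01 and 1.73 CPM in labelled sham libraries. All its groups overlapped, and at 64 to 112 counts a library the 95% interval of the knockout over wild-type mTBI log2 difference ran from -0.81 to 0.35. That difference was between -0.50 (without knockout mTBI replicate 2) and -0.09 (without wild-type mTBI replicate 3) with single libraries left out.

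Of the Id genes, Id3 was lowest in the knockout and highest in wild-type mTBI, and Id1 and Id4 lay above labelled sham on average in wild-type mTBI. None passed the test. Id3 (chr4:136143497-136145755, plus strand), whose start region with 2 Smad pentamers is printed above, had 20.8, 20.9 and 22.6 CPM in knockout mTBI libraries, 31.5, 26.7 and 30.3 CPM in wild-type mTBI libraries, and 23.5, 24.4 and 26.0 CPM in labelled sham libraries. No library of one group reached the range of another, and labelled sham lay between the injured groups. The log2 fold change of knockout over wild-type mTBI was -0.46 (SE 0.09, 95% interval -0.66 to -0.27), a level 1.38-fold lower, with an edgeR adjusted p of 0.732 over 20032 genes. Its unadjusted edgeR p, 0.000307, was the smallest of the 10 genes in any comparison. DESeq2 gave the same difference an adjusted p of 0.0104. The difference lay between -0.52 and -0.39 in all alternatives run, and edgeR with labelled sham libraries summed gave an adjusted p of 0.935. The log2 fold change was 0.26 for wild-type mTBI over labelled sham (SE 0.09, edgeR adjusted p = 0.251) and -0.20 for knockout mTBI over labelled sham (SE 0.09, edgeR adjusted p = 0.676). The choroid plexus markers summed to 237, 5035 and 4117 CPM in the knockout libraries, where Id3 had 20.8, 20.9 and 22.6 CPM, and to 4429, 6232 and 6120 CPM in the wild-type mTBI libraries, where Id3 had 31.5, 26.7 and 30.3 CPM. Their part in the Id3 difference was not tested.

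Id1 (chr2:152736251-152737410, plus strand), a BMP target of stem cells, astrocytes and endothelium, had 10.8, 13.8 and 12.3 CPM in knockout mTBI libraries, 15.4, 10.6 and 17.5 CPM in wild-type mTBI libraries, and 9.14, 9.89 and 10.7 CPM in labelled sham libraries. Knockout libraries lay just above labelled sham, while wild-type mTBI replicate 2 fell within its range. Id1 had a log2 fold change of 0.55 for wild-type mTBI over labelled sham (SE 0.17, edgeR adjusted p = 0.218), -0.24 for knockout over wild-type mTBI (SE 0.17, edgeR adjusted p = 0.745) and 0.31 for knockout mTBI over labelled sham (edgeR adjusted p = 0.821). The difference between knockout and wild-type mTBI was -0.08 without wild-type mTBI replicate 3 and -0.41 without replicate 2. Without the count filter the Id1 difference of wild-type mTBI over labelled sham had an edgeR adjusted p of 0.0452. With labelled sham summed that difference was 0.55.

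Id4 (chr13:48261228-48266026, plus strand), known from astrocytes and quiescent neural stem cells, had 48.4, 53.8 and 53.6 CPM in knockout mTBI libraries, 60.9, 51.3 and 58.1 CPM in wild-type mTBI libraries, and 47.0, 45.6 and 50.1 CPM in labelled sham libraries. Every wild-type mTBI library was above every labelled sham library, and knockout libraries overlapped both groups. For wild-type mTBI over labelled sham it had a log2 fold change of 0.25 (SE 0.08, edgeR adjusted p = 0.241), and for knockout over wild-type mTBI one of -0.13 (95% interval -0.31 to 0.06), which was -0.07 without wild-type mTBI replicate 1. Id4 shares 253 exon bases with the antisense genes A330033J07Rik and Gm49291, so reads there may come from either strand.

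Id2 (chr12:25093799-25097140, minus strand), known from neurons of the adult brain, had 51.5, 48.5 and 55.2 CPM in knockout mTBI libraries, 69.4, 52.9 and 52.8 CPM in wild-type mTBI libraries, and 55.2, 58.9 and 56.2 CPM in labelled sham libraries. Wild-type mTBI replicate 1 stood alone above all others, and the other injured libraries lay below the labelled sham range. The log2 difference was -0.17 for knockout over wild-type mTBI (95% interval -0.41 to 0.06) and 0.04 for wild-type mTBI over labelled sham (95% interval -0.20 to 0.27), and without wild-type mTBI replicate 1 these were -0.03 and -0.10. Set against the labelled sham range library by library, 1, 2 and 2 of the 4 Id genes were above it in the 3 knockout mTBI libraries, where Id2 and Id3 were below it each time. In the wild-type mTBI libraries 4, 2 and 3 Id genes were above it and 0, 1 and 1 below it. Of all tested genes, 30.9% to 41.9% were above the labelled sham range and 31.7% to 37.7% below it in these 6 libraries.

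Around the 10 genes, 56 other genes of the BMP branch were followed, of which 49 were tested. Between knockout and wild-type mTBI edgeR, DESeq2 and voom each called 0 of 49, with 5 at an unadjusted p under 0.05 by edgeR (2 higher, 3 lower), against 6.6% of all genes. Between wild-type mTBI and labelled sham edgeR called 0, with 8 at an unadjusted p under 0.05 (5 higher, 3 lower), against 13.2% of all genes. There DESeq2 and voom each called 5 (Sostdc1, Msx1, Nbl1 and Bmpr1b higher, Bmpr2 lower), against 2.7% and 3.6% of all genes by these tools. Between knockout mTBI and labelled sham edgeR called 0, with 8 at an unadjusted p under 0.05, against 7.2% of all genes, and DESeq2 and voom each called 2 (Bmpr1b higher, Bmpr2 lower), against 1.13% and 1.39%. The median log2 fold change of the 49 was -0.04 and 0.0041 in the first and the second of these comparisons, against 0.0012 and 0.02 over all genes.

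**Figure D3:**
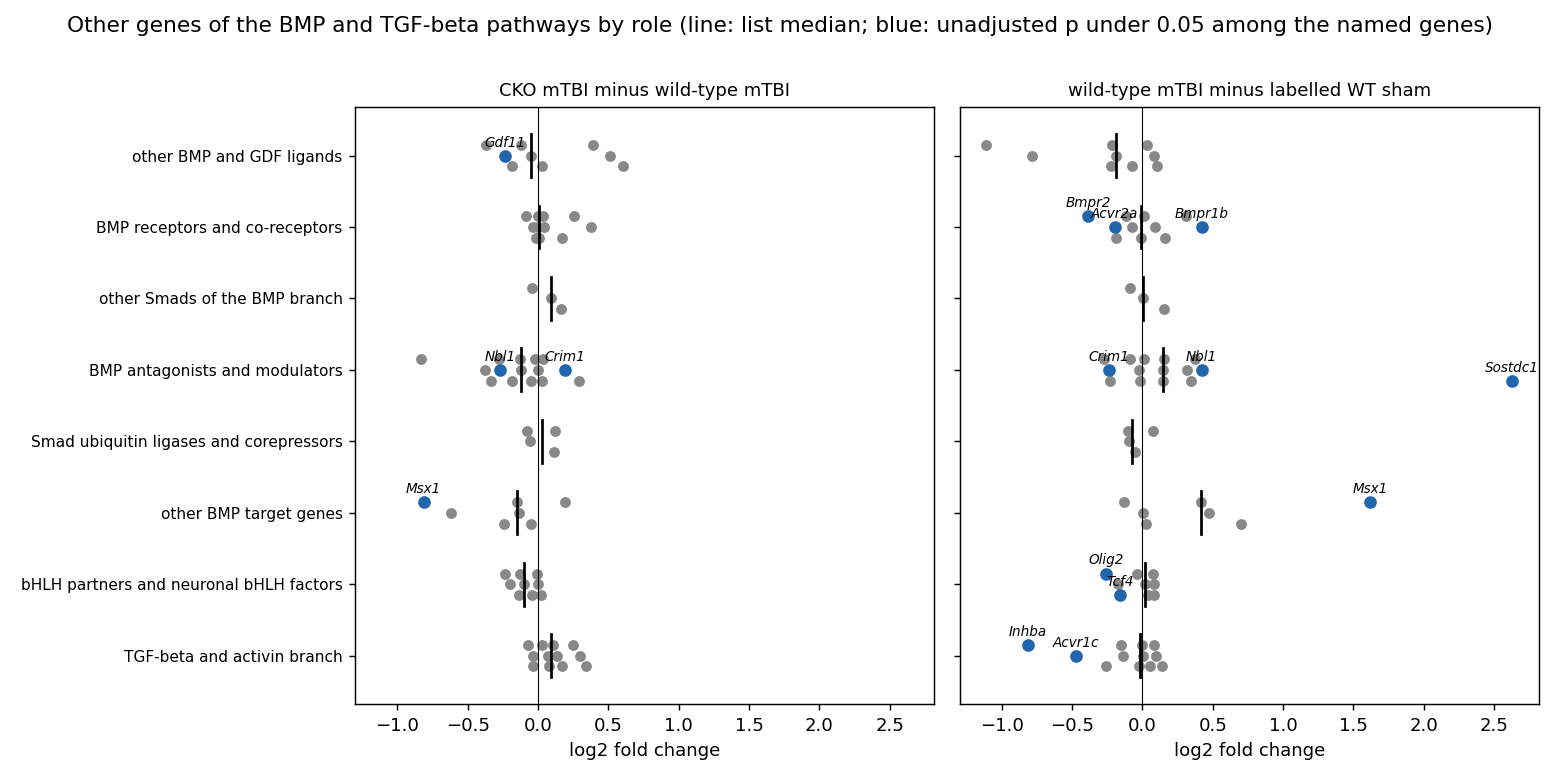
Log2 fold change (x axis) of the other pathway genes tested, by role (rows), for knockout over wild-type mTBI on the left and wild-type mTBI over labelled sham on the right; black lines are list medians and blue points the named genes with an unadjusted p under 0.05. Sostdc1 at 2.63 and Msx1 at 1.62 stand furthest right in the panel of wild-type mTBI over labelled sham. No gene passed an adjusted p of 0.05 by edgeR, whereas DESeq2 and voom each called 5 genes of the BMP branch in that panel.

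Of the 16 other BMP and GDF ligands, 9 were tested and 0 were called by edgeR in any comparison. Gdf11, a ligand of the activin receptors and the most abundant of them, had 29.6, 23.5 and 25.5 CPM in knockout mTBI libraries, against 29.7, 32.6 and 30.3 CPM in wild-type mTBI libraries (log2 fold change -0.24, edgeR adjusted p = 0.732). The groups did not overlap, although knockout replicate 1, at 29.62 CPM, was next to the lowest wild-type library, at 29.68 CPM. Bmp3, which opposes BMP signals through type II receptors, averaged 4.52 ± 0.52 CPM in knockout mTBI and 6.79 ± 0.11 CPM in labelled sham libraries (SD, n = 3 each; log2 fold change -0.59, edgeR adjusted p = 0.497). Bmp5 averaged 0.65 ± 0.21 CPM in knockout mTBI and 1.15 ± 0.24 CPM in labelled sham libraries (log2 fold change -0.83, edgeR adjusted p = 0.659). Bmp8a, Bmp10, Bmp15, Gdf2, Gdf3 and Gdf6 had at most 16 counts in a library, and Gdf1 had 0.

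All 11 receptors and co-receptors were tested. The type II receptor genes Bmpr2 and Acvr2a were lower in both injured groups than in labelled sham libraries and the type I receptor gene Bmpr1b was higher, each without passing the edgeR test. Bmpr2, the type II receptor specific to BMPs, had 153, 182 and 171 CPM in knockout mTBI libraries, 157, 178 and 156 CPM in wild-type mTBI libraries, and 219, 215 and 210 CPM in labelled sham libraries. Both injured groups were below every labelled sham library, with a log2 fold change of -0.35 for knockout mTBI (edgeR adjusted p = 0.193) and -0.39 for wild-type mTBI (edgeR adjusted p = 0.0697). Acvr2a, shared with activins, averaged 65.4 ± 1.9 CPM in knockout mTBI, 63.8 ± 0.2 CPM in wild-type mTBI and 73.2 ± 2.6 CPM in labelled sham libraries (log2 fold change -0.16 and -0.20 over labelled sham, edgeR adjusted p = 0.583 and 0.230). Bmpr1b averaged 17.5 ± 1.4 CPM in knockout mTBI, 17.4 ± 1.0 CPM in wild-type mTBI and 13.0 ± 0.8 CPM in labelled sham libraries. Its injured libraries, 16.3 to 19.1 CPM, were above every labelled sham library, 12.4 to 13.8 CPM (log2 fold change 0.43 and 0.42, edgeR adjusted p = 0.199 and 0.103). DESeq2 and voom put Bmpr2 and Bmpr1b under an adjusted p of 0.05 in both comparisons. With labelled sham summed the edgeR log2 fold change of Bmpr2 was -0.35 for knockout mTBI and -0.39 for wild-type mTBI. That of Bmpr1b was 0.43 and 0.42 in the same order.

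Of the 3 other Smads of the BMP branch, 0 were called by edgeR in any comparison. Smad1 averaged 18.8 ± 1.6 CPM in knockout mTBI, 16.8 ± 0.9 CPM in wild-type mTBI and 15.1 ± 1.1 CPM in labelled sham libraries, with a log2 fold change of knockout mTBI over labelled sham of 0.31 (edgeR adjusted p = 0.422), beside 0.32 for Smad9. Its knockout libraries lay above every labelled sham library, with an unadjusted p under 0.05, and overlapped wild-type mTBI libraries. Smad5 averaged 45.0 ± 0.9, 46.3 ± 4.6 and 46.3 ± 1.0 CPM in these groups, and Smad4, the partner of all receptor-activated Smads, 43.9 ± 2.5, 41.1 ± 6.6 and 43.8 ± 0.5 CPM. Of the 4 ubiquitin ligases and corepressors, 0 were called and 0 reached an unadjusted p under 0.05 by edgeR in any comparison. Ski, a corepressor of Smads, averaged 165 ± 10 CPM in knockout mTBI, 171 ± 4 CPM in wild-type mTBI and 163 ± 7 CPM in labelled sham libraries.

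Of the 15 antagonists and modulators, the widest difference was that of Sostdc1, a secreted BMP and Wnt antagonist made by choroid plexus. It had 2.14, 16.1 and 11.7 CPM in knockout mTBI libraries, 13.7, 21.2 and 18.3 CPM in wild-type mTBI libraries, and 2.54, 2.92 and 3.12 CPM in labelled sham libraries. Knockout replicate 1 was below every labelled sham library, and the other injured libraries were at least 11.7 CPM. Sostdc1 in wild-type mTBI over labelled sham had a log2 fold change of 2.63 (SE 0.52, edgeR adjusted p = 0.0594) and in knockout mTBI over labelled sham one of 1.80 (SE 0.52, edgeR adjusted p = 0.320). Without knockout mTBI replicate 1 both passed, at 2.63 (edgeR adjusted p = 5.168e-05) and 2.28 (edgeR adjusted p = 0.000311). With labelled sham summed these differences were 2.63 and 1.80. Over the injured libraries Sostdc1 had the same order as the choroid plexus list, and the part of that tissue was not tested. Nbl1, an antagonist of the DAN family, had 56.9, 54.1 and 69.0 CPM in knockout mTBI libraries, 75.0, 70.6 and 71.4 CPM in wild-type mTBI libraries, and 51.1, 56.0 and 55.1 CPM in labelled sham libraries. All wild-type mTBI libraries were above all others (log2 fold change -0.27 for knockout over wild-type mTBI, edgeR adjusted p = 0.732; 0.42 for wild-type mTBI over labelled sham, edgeR adjusted p = 0.0793). Crim1, a membrane protein that binds BMPs, had differences of opposite sign, at 145 ± 5 CPM in knockout mTBI, 127 ± 14 CPM in wild-type mTBI and 150 ± 2 CPM in labelled sham libraries (log2 fold change 0.19, edgeR adjusted p = 0.732, and -0.24, edgeR adjusted p = 0.251, in the same 2 comparisons, and 0.11 and -0.15 without wild-type mTBI replicate 1).

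Among 7 other BMP target genes, Msx1, a homeobox gene, had 2.93, 7.57 and 8.55 CPM in knockout mTBI libraries, 9.11, 11.9 and 12.5 CPM in wild-type mTBI libraries, and 3.87, 3.47 and 3.56 CPM in labelled sham libraries. Wild-type mTBI libraries were above all others, and knockout replicate 1 was below labelled sham. Msx1 had a log2 fold change of -0.81 for knockout over wild-type mTBI (SE 0.30, edgeR adjusted p = 0.732), 1.62 for wild-type mTBI over labelled sham (SE 0.31, edgeR adjusted p = 0.0538) and 0.81 for knockout mTBI over labelled sham (SE 0.31, edgeR adjusted p = 0.574). Without knockout mTBI replicate 1 the first was -0.47, the second 1.62 with an edgeR adjusted p of 0.000318 and the third 1.15 with an edgeR adjusted p of 0.0107. The third was 0.53 without knockout mTBI replicate 3. With labelled sham summed the second was 1.62 and the third 0.80. As in the choroid plexus list, knockout replicate 1 was near the labelled sham level and wild-type mTBI replicates 2 and 3 were highest, and the part of that tissue was not tested. The Notch and BMP target Hey1 averaged 38.9 ± 2.9, 40.1 ± 4.0 and 40.0 ± 0.2 CPM in knockout mTBI, wild-type mTBI and labelled sham libraries.

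**Figure D4:**
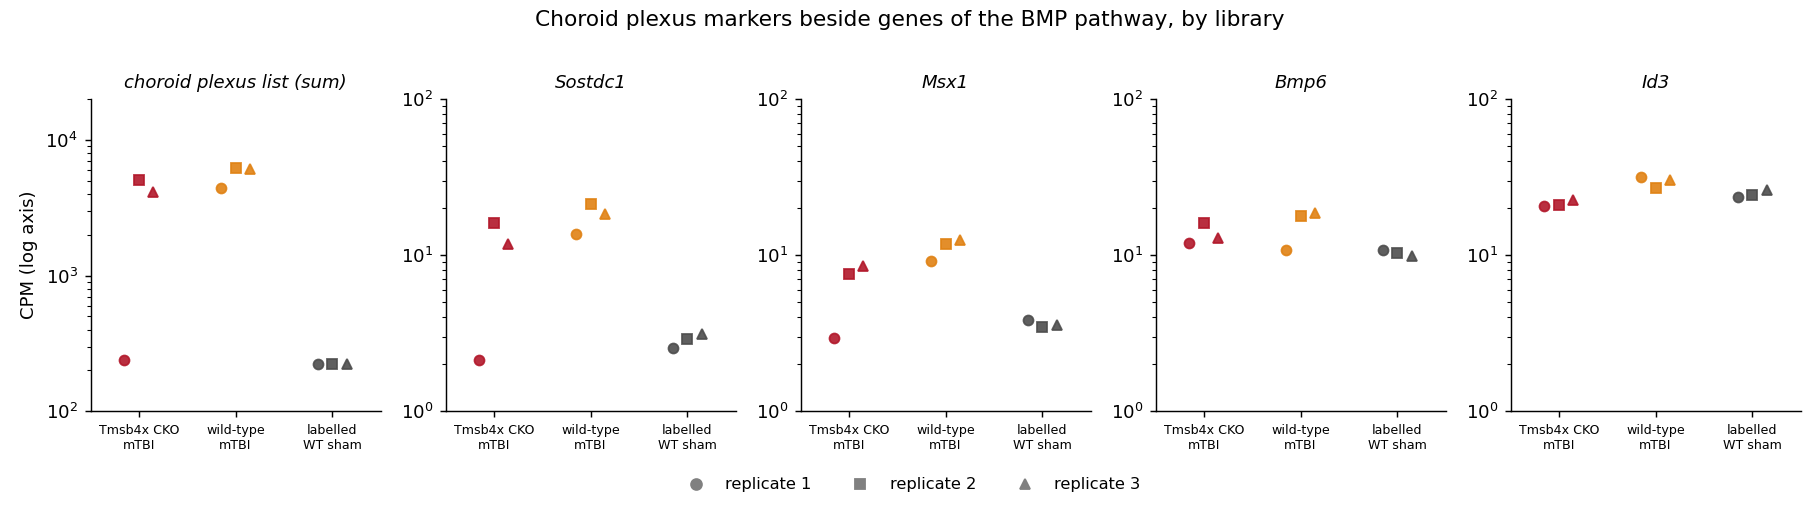
Summed CPM of the 10 choroid plexus markers and CPM of Sostdc1, Msx1, Bmp6 and Id3 in the 9 libraries, on log axes, with 1 point per library. Knockout mTBI replicate 1 stands just above the labelled sham libraries for the marker sum (237 CPM against 221 to 223 CPM). For Sostdc1 and Msx1 it lies below every labelled sham library. It has 20.8 CPM of Id3, against 20.9 and 22.6 CPM in the other knockout libraries.

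The E proteins and neuronal basic helix-loop-helix factors that Id proteins act on showed 0 of 9 called by edgeR in any comparison. At an unadjusted p under 0.05 there were 2, Tcf4 and Olig2, in each comparison with labelled sham, against 7.2% of all genes for knockout mTBI and 13.2% for wild-type mTBI, and 0 between knockout and wild-type mTBI. Tcf4, the most abundant E protein here, averaged 463 ± 11 CPM in knockout mTBI, 464 ± 23 CPM in wild-type mTBI and 517 ± 2 CPM in labelled sham libraries. Both injured groups were below every labelled sham library (log2 fold change -0.16 each, edgeR adjusted p = 0.588 for knockout and 0.328 for wild-type mTBI). Olig2, the oligodendrocyte lineage factor, averaged 29.8 ± 3.1 CPM in knockout mTBI, 29.8 ± 4.5 CPM in wild-type mTBI and 35.6 ± 1.3 CPM in labelled sham libraries (log2 fold change -0.26 each, edgeR adjusted p = 0.679 and 0.371), and the second difference was -0.16 without wild-type mTBI replicate 1. Neurod6, a factor of pyramidal neurons, averaged 177 ± 7, 182 ± 31 and 206 ± 4 CPM in the same order of groups.

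For the genes of widest spread, Bmp4 and Bmp7, the tested genes with the most similar pattern over the 9 libraries were listed by the root mean square difference of centred log2 CPM, among 15593 genes with a mean of at least 1 CPM. The nearest to Bmp7 was Notch3, a Notch receptor of mural cells, at 0.109, followed by Itpr3 (0.115), Kirrel (0.118), Gm17193 (0.143) and Grip2 (0.143), where the median gene lay at 0.389. Like Bmp7, Notch3 was lowest in wild-type mTBI replicate 1 at 10.5 CPM, against 16.1 to 21.9 CPM in the other libraries. The nearest to Bmp4 were Cavin2 (0.159), Atp5k-ps2 (0.161), Gm3294 (0.162), Pltp (0.169) and C130074G19Rik (0.172), where the median gene lay at 0.444. The 9 libraries share their group means and sort, and the likeness is a description only.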

How the data were processed

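The deposited values are raw read counts per Ensembl gene in 9 libraries, without normalization. Per the file headers, the authors counted exons of Ensembl release 98 on GRCm38 with featureCounts 2.0.6. The command held no option for read pairs, strand or multi-mapping reads, so both mates were counted singly. Per the submitters' processing notes, FastQC, Trim Galore, HISAT2, SAMtools and MultiQC were also used, with genome mm10 and no versions given.

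Symbols, positions and exon lengths came from GENCODE M21 by Ensembl identifier, which matched 55240 of 55421 genes, and Hjv was matched through its RefSeq synonym. The 10 genes, the pathway and marker lists and the alternatives were chosen with earlier results of these data known. After filterByExpr and TMM scaling, edgeR 4.0.16 in R 4.3.3 fitted 3 group means to all 9 libraries (6 residual and 5.12 prior degrees of freedom, common coefficient of variation 15.3%). Contrasts were tested two-sided by its quasi-likelihood F test, with Benjamini-Hochberg adjustment over the 20032 genes, and called genes had an adjusted p under 0.05. For Tmsb4x, permuting 3 against 3 libraries in an exact two-sided test gave 0.1, the smallest p that it allows, in both comparisons with wild-type mTBI, and 0.5 between knockout mTBI and labelled sham.

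Other pathway genes were named by rule: the most abundant member of each list and up to 3 members of smallest unadjusted p in any comparison, with log2 fold changes given where that p was under 0.05. The scripts were tested on simulated counts. Replicate numbers were not used to pair libraries, since deviations of same-numbered libraries correlated at -0.0887 to 0.0733. Alternatives were RLE scaling, library totals only, DESeq2 1.42.0, limma 3.58.1 voom with quality weights per sample, the table without a count filter or with 20 counts required in 3 libraries, the 6 libraries compared, a replicate block, counts divided by 2, wild-type and knockout mTBI replicate 1 left out together, each library left out, and the labelled sham libraries summed, the last chosen after seeing the data. No column of the table was left out. The fewest counts among the 10 genes were those of Smad6, 64 to 112 in a library, and Bmp4, 68 to 185.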

Additional observations from a re-analysis of the deposited data

How the results depend on the processing

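Of 600 recomputed log2 fold changes of the 10 genes over 20 alternatives, 576 kept their direction and side of the threshold, 7 newly passed it and 17 changed sign. Of 540 of named pathway genes, 489 kept both and 51 newly passed. None of these genes was called in the main edgeR fit, so no value could lose a call. Any uncalled value of unchanged sign counted as kept. Of the 10 genes, DESeq2 called 1 between knockout and wild-type mTBI. Between wild-type mTBI and labelled sham, voom called 2, no count filter 2, and leaving out wild-type and knockout mTBI replicate 1 together 1. Leaving out single libraries gave 0 to 1 there (Bmp6, without wild-type mTBI replicate 1) and 0 to 0 in the other comparisons. All genes called between wild-type mTBI and labelled sham were 102, against 541 (DESeq2), 722 (voom), 676 (no count filter), 253 (6 libraries compared), 523 (both replicates 1 left out) and 1 (labelled sham summed, where the lone sample was assumed to vary like the others), and 5 to 252 with single libraries left out, lowest without labelled sham replicate 1 or 2 and highest without knockout mTBI replicate 1. Between knockout and wild-type mTBI they were 3, against 19, 68 (no count filter), 1 (6 libraries), 24 (both replicates 1 left out) and 1 (labelled sham summed), and 2 to 7. Between knockout mTBI and labelled sham they were 14, against 226, 279 (voom), 387, 71, 337 and 0 in the order of the first list, and 2 to 128. With the replicate number as a block edgeR called 0 of the 10 genes in each comparison and 107, 3 and 13 genes in all; the libraries share only a number. Sign changes, all of differences that were not called, were those of Bmp7 in the injury comparison (RLE -0.0006955, DESeq2 -0.0007841, replicate block -0.01513, single libraries left out -0.273 to 0.263) and between knockout and wild-type mTBI (-0.166 with both replicates 1 left out), Id2 in the injury comparison (voom -0.0746, both replicates 1 left out -0.104, single libraries -0.104 to 0.0986), Smad9 there (-0.0354 to 0.0688), and Smad6 (voom -0.0850, single libraries -0.216 to 0.182) and Tmsb4x (-0.00891 to 0.331) between knockout mTBI and labelled sham. The cause of these changes was not tested. At an unadjusted p under 0.05 the 10 genes numbered 3 to 5 in the injury comparison with single libraries left out, lowest without labelled sham replicate 2, 2 to 5 between knockout and wild-type mTBI, highest without wild-type mTBI replicate 1, and 1 to 4 between knockout mTBI and labelled sham. The share of all genes at that threshold is not given for these fits, so these counts are a description only.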

Other observations

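The TGF-beta and activin branch, which signals through Smad2 and Smad3, held 12 tested genes, and edgeR called 0 of them in any comparison, with 2 at an unadjusted p under 0.05 in each comparison with labelled sham (against 7.2% of all genes for knockout mTBI and 13.2% for wild-type mTBI) and 0 between knockout and wild-type mTBI. Inhba, which encodes the activin A subunit and is induced by neuronal activity, had 4.47, 6.39 and 5.57 CPM in knockout mTBI libraries, 6.34, 4.46 and 4.46 CPM in wild-type mTBI libraries, and 8.18, 9.01 and 9.63 CPM in labelled sham libraries. Every injured library was below every labelled sham library (log2 fold change -0.71 for knockout mTBI, edgeR adjusted p = 0.247, and -0.81 for wild-type mTBI, edgeR adjusted p = 0.0809). Acvr1c, a type I receptor of activins and Nodal, had 15.7, 17.9 and 17.5 CPM in knockout mTBI libraries, 14.2, 17.4 and 13.7 CPM in wild-type mTBI libraries, and 21.2, 20.5 and 21.2 CPM in labelled sham libraries, with no overlap between injured and labelled sham libraries (log2 fold change -0.30, edgeR adjusted p = 0.507, and -0.47, edgeR adjusted p = 0.0860). Over this branch and the basic helix-loop-helix list together, DESeq2 called 2 and voom 3 of 21 genes between wild-type mTBI and labelled sham, all lower, against 2.7% and 3.6% of all genes by these tools. Between knockout mTBI and labelled sham each called 1, Inhba, lower (adjusted p = 0.0242 by DESeq2 and 0.0217 by voom), against 1.13% and 1.39% of all genes. With labelled sham summed the edgeR log2 fold change of Inhba was -0.71 for knockout mTBI and -0.81 for wild-type mTBI. Acvr1b averaged 130 ± 4 CPM in knockout mTBI, 124 ± 10 CPM in wild-type mTBI and 126 ± 4 CPM in labelled sham libraries.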
